A study of Mus musculus with 16 samples.

Results

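The genes described here were 49 genes of blood coagulation and complement, read from 49 of the 25054 rows of a table of gene counts in newborn mice. They were chosen by symbol, and each symbol was found on a single row. The list held fibrinogen and the enzymes that crosslink fibrin (5 genes), the procoagulant enzymes and cofactors (12), the anticoagulants (6), the enzymes and inhibitors of fibrinolysis (5), the recognition molecules of complement with the lectin pathway (7), C3 with the alternative pathway and its regulators (6), and the terminal pathway (8). The study asked how the loss of Man1a2, a mannosidase that trims N-linked sugars, and an antioxidant given through gestation bear on lung and liver of newborn C57BL/6J pups.

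All parents were Man1a2 heterozygous, and drank either NAC (N-acetyl cysteine, 1 g/kg body weight) or water as placebo from 1 week before mating until the litter was born. Pups were live WT, live heterozygous (Het), dead heterozygous or dead null. The null allele lacks exon 2 of Man1a2 in the whole animal. Survival was followed for 24 h, dead pups were harvested at death and live pups at 24 h, so that death and age at harvest cannot be told apart, and null pups were all dead. RNA of 3 experiments was pooled for each library (2 for dead heterozygous pups), and each pup group, treatment and labelled tissue gave 1 library, 16 in all. Libraries of different pup groups, or of 1 pup group and treatment under both tissue labels, therefore stood in for replicates. The p-values of each test measure the spread between these pooled libraries.

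Most soluble clotting factors and complement proteins are secreted by hepatocytes and circulate as inactive precursors. Clotting starts when blood meets tissue factor (F3), a receptor on cells outside the vessel wall, and ends when thrombin (F2) cleaves fibrinogen. Endothelium limits it with thrombomodulin (Thbd) and tissue factor pathway inhibitor (Tfpi), and plasmin, made from Plg by the activators Plat and Plau, dissolves the clot. Complement starts from C1q, from the lectins Mbl1 and Mbl2, or from C3 itself, and ends in a pore built from the products of Hc (C5), C6, C7, the C8 genes and C9.

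Total counts were from 7236906 to 16107764 per library (median 12962327). The tissue labels went against tissue markers in 8 libraries, and 1 was mixed. Sftpc, the surfactant protein of lung alveolar type II cells, and Alb, albumin of hepatocytes, split the libraries into 8 of liver content (Alb from 51003 to 101254 CPM, counts per 1000000 of the library, and Sftpc at most 3.10), 7 of lung content (Sftpc from 4446 to 11758 CPM and Alb at most 135.0) and 1 in between, the library labelled dead null placebo lung, with 9280 CPM of Alb and 5553 of Sftpc. The tissue label matched the content in 7 libraries and was the other tissue in 8. Liver content was found in the libraries labelled lung of live WT placebo, live Het placebo, dead Het NAC and dead null NAC pups, and lung content in those labelled liver of live WT placebo, live Het placebo, dead Het NAC and dead null placebo pups. Genotype, survival and treatment were taken from the labels, which no gene count here could check. Man1a2 itself ranged from 24.5 to 70.0 CPM in the 4 libraries labelled null and from 22.6 to 121 in the other 12, and counts per gene do not separate exon 2. Within liver-content libraries, the dead null NAC library labelled liver was most like the live Het placebo library (Pearson r = 0.83 across 12993 genes of log values centred on the class mean), and the live WT NAC library most like the dead Het NAC library (r = 0.43), across the survival labels. Rn45s, a ribosomal RNA, made up 0.85% to 6.29% of the counts in liver-content, from 4.05% to 26.2% in lung-content libraries and 24.3% in the mixed library.

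Coagulation and complement transcripts were a liver set in these libraries. The 49 genes took from 3.41% to 5.04% of all counts in liver-content libraries (median 4.41%), from 0.141% to 0.245% in lung-content libraries (median 0.183%) and 0.760% in the mixed library. In liver content 47 members had a median of at least 1 CPM, 26 of at least 100 CPM and 10 of at least 1000 CPM. In lung content 29 reached 1 CPM, 5 reached 100 CPM and none of the 49 reached 1000 CPM. Of 47 members that could be compared on CPM scaled by TMM factors, 36 were higher in every liver-content library than in any lung-content library (26.3% of 14175 genes were), 7 were lower in every liver-content library (23.6% of genes were) and 4 overlapped. On CPM without these factors, the scale of the levels given below, 35 of the 47 were higher in every liver-content library, and Serping1 overlapped. The classes were set from the counts of 2 genes, so these differences are descriptions with no test. In bulk tissue fewer cells of a type and less RNA per cell cannot be told apart.

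**Figure D1:**
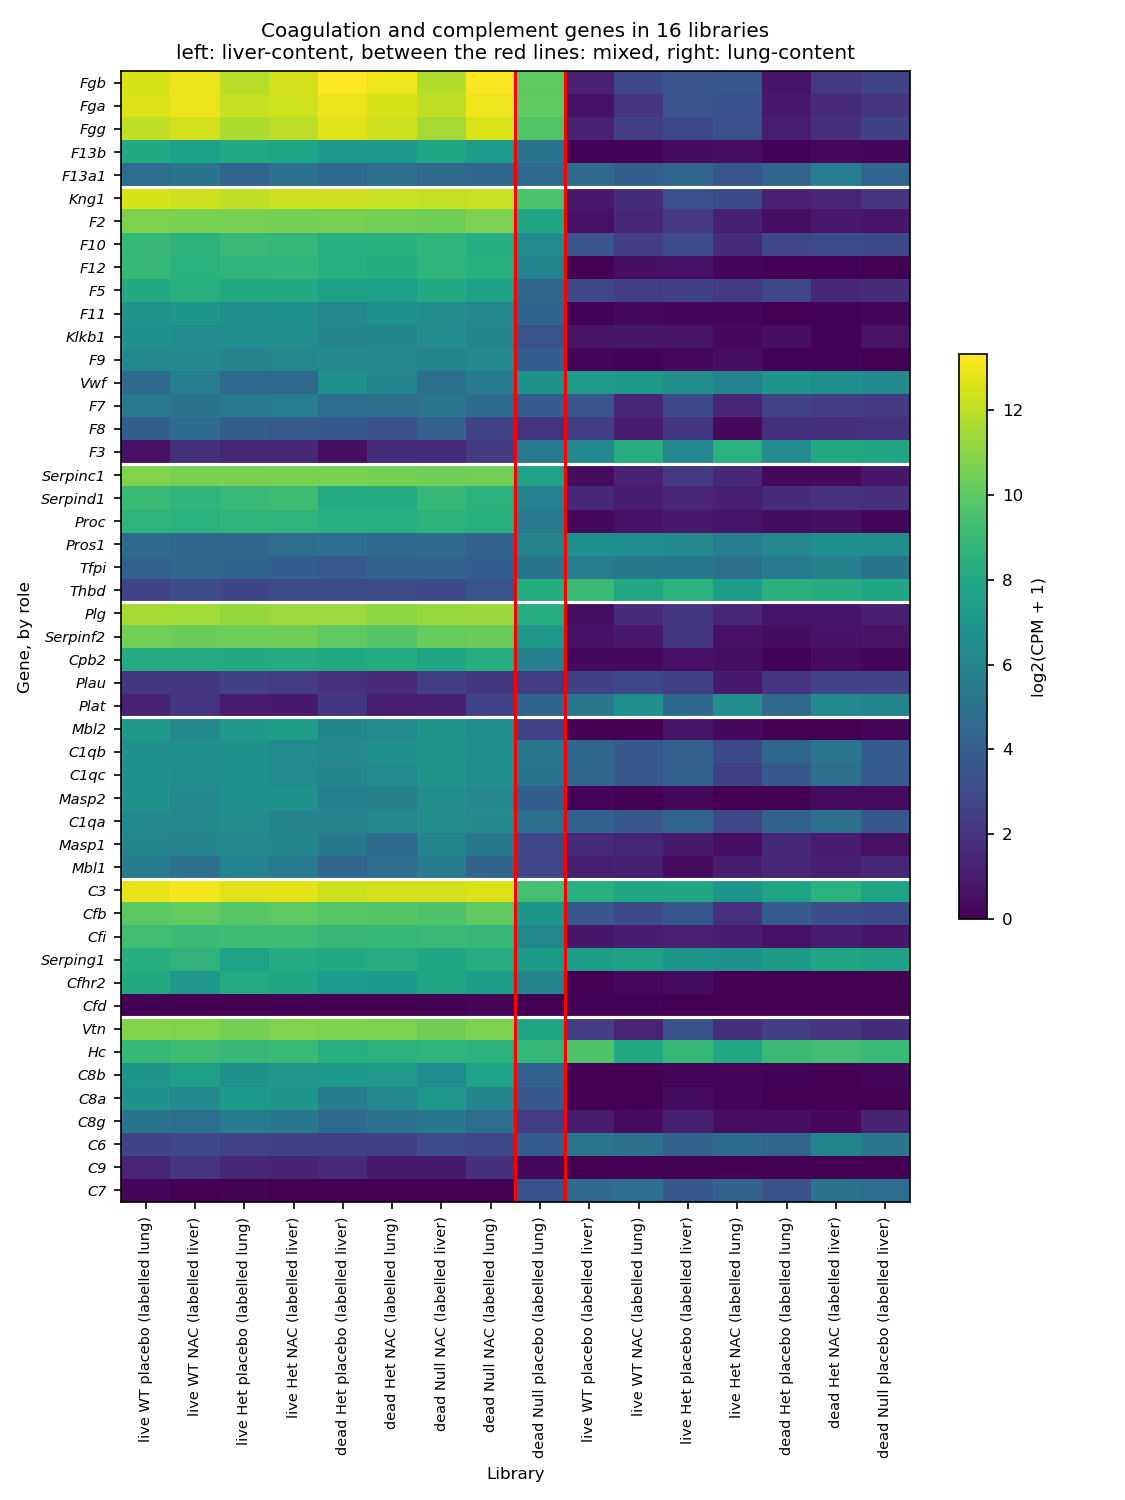
Level of each of the 49 genes (rows, grouped by role between the white lines) in the 16 libraries (columns), as log2(CPM + 1) from dark (0) to yellow (highest). Liver-content libraries stand left of the red lines and lung-content libraries right of them. F3, Thbd, Pros1, Tfpi, Plat, C6 and C7 are the rows brighter on the right without overlap. Vwf, Hc and Plau also have a higher median there, with overlap. The mixed library between the lines has both patterns.

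Fibrinogen led the list. Its 3 chains are encoded by neighbouring genes on chromosome 3, Fgg (chr3:83007724-83015049, GRCm38, plus strand), Fga (chr3:83026076-83033627, plus strand) and Fgb (chr3:83040141-83049863, minus strand), with 11026 and 6513 bases between them. Per kilobase of exons, these were the 3 highest members in liver content, at medians of 2256, 1975 and 1796 CPM per kb. Exon lengths joined all annotated transcripts of a gene, so ranks per kilobase depend on the annotation. In the order live WT placebo, live WT NAC, live Het placebo, live Het NAC, dead Het placebo, dead Het NAC, dead null NAC labelled liver and dead null NAC labelled lung, which holds for all lists of 8 values below, Fgb had 5766, 7918, 3806, 5569.7, 10236, 8005, 3523 and 9753 CPM. Fga had 5990.3, 7734, 4520.0, 5192, 7863, 5898, 4184 and 8178 CPM in the same libraries. Fgg had 4297, 5453, 3238, 4009, 6634, 5148, 2955 and 6089 CPM. All 3 chains were lowest in the dead null NAC library labelled liver and next lowest in the live Het placebo library. Fgb had the widest span of the 3, 2.91-fold between the lowest and the highest library. In lung content, in the order live WT placebo, live WT NAC, live Het placebo, live Het NAC, dead Het placebo, dead Het NAC and dead null placebo, used for all lists of 7 values below, Fgb had 1.35, 6.79, 10.4, 11.3, 0.685, 3.73 and 5.30 CPM. Fga had 0.593, 3.05, 9.82, 9.40, 0.913, 1.98 and 2.97 CPM there. Fgg had 1.35, 4.52, 6.35, 8.57, 1.14, 2.52 and 5.04 CPM. These were from 6 to 90 counts of Fgb in a library, and the liver-content median of Fgb was 1291-fold higher. An uncharacterised gene, Gm30097, overlaps exons of Fgg on the other strand, and the use of strand in counting is not given in the sources used here.

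The promoters of the 3 chains are shown because the genes are neighbours with the same order of lowest libraries, with those of C8a and F3, whose levels ran differently. Each is 250 bases before to 50 after the RefSeq start (GRCm38.p6), 5′ to 3′ on the gene's strand. Capitals mark GTTAAT on either strand (ATTAAC on the other strand), core letters of the motif of the hepatocyte factor HNF1, and in F3 the letters TGANTCA of AP-1 and GGGCGG of a GC box.
Fgg, chr3:83007474-83007773, plus strand: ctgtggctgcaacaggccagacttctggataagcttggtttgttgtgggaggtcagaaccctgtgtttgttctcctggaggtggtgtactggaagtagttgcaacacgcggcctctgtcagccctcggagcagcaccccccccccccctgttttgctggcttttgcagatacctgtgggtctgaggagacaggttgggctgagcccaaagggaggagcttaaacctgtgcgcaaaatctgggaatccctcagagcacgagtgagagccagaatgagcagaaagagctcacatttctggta
Fga, chr3:83025903-83026202, plus strand: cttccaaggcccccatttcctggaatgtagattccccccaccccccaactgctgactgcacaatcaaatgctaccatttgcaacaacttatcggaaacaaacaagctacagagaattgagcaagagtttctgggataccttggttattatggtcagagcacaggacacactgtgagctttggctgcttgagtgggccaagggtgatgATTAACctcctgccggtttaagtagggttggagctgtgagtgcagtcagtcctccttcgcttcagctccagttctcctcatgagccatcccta
Fgb, chr3:83049814-83050113, minus strand: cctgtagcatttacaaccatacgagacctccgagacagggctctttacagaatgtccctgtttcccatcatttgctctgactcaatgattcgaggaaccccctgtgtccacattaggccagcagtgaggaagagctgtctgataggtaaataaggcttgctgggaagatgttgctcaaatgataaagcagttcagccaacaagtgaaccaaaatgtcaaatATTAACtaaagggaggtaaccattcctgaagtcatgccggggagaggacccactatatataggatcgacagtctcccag
C8a, chr4:104876349-104876648, minus strand: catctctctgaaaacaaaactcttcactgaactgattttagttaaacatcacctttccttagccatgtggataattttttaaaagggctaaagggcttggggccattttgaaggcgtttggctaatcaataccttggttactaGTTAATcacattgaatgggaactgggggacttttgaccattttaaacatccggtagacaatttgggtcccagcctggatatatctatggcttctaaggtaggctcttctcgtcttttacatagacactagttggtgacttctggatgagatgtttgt
F3, chr3:121723287-121723586, plus strand: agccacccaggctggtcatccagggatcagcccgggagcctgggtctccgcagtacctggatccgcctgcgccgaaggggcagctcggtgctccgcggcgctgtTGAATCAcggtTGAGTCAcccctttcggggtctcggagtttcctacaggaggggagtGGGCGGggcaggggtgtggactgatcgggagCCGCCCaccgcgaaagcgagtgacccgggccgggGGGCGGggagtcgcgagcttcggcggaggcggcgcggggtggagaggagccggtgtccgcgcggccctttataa

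The HNF1 letters began 43 bases before the start of Fga, 29 before that of Fgb and 107 before that of C8a, and Fgg had none in this window. Fgb also had AP-1 letters 173 bases before its start, left in lower case above. F3 had AP-1 letters 146 and 135 bases and GC boxes 89, 58 and 24 bases before its start. Promoters were found for 37 of the 49 genes (40 promoters). Over these, 25% held GTTAAT, against 7.1% of 32851 promoters of all genes. TTGCNNAA, letters of a C/EBP site, were in 22.5% against 10.8%, TGANTCA in 10% against 7.81%, GGGCGG in 17.5% against 35.7%, and TATAAA in 17.5% against 13.6%, on both strands. A match of letters is a description of the sequence and not a bound site. No promoter was matched for Thbd, Cfb, Vwf, Plau, Plat, C1qa, Serping1, Cfi, Masp1, Proc, Plg and Kng1.

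Factor XIII, which crosslinks fibrin, had its subunits in different patterns. F13b, the carrier subunit, ranged from 137 to 262 CPM (median 205) in liver content and reached at most 3 counts in a lung-content library. F13a1, the catalytic subunit made by macrophages and megakaryocytes, ranged from 19.1 to 34.8 CPM (median 25.3) in liver content and from 10.9 to 51.6 CPM (median 19.1) in lung content, so that the classes overlapped.

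Among the procoagulant genes, 10 of 12 were higher in every liver-content library. Kng1, high-molecular-weight kininogen, was the highest of them per kilobase in liver content at 1502 CPM per kb, and its reads may be shared with the near-identical Kng2. F2, prothrombin, had 1650.5, 1593, 1513, 1466, 1554, 1409, 1338 and 1665 CPM in liver content. It spanned only 1.24-fold between the lowest and highest of these libraries, and the dead and live libraries overlapped. In lung content F2 had 0.593, 1.81, 3.70, 1.24, 0.457, 0.878 and 0.775 CPM. The live Het placebo library was the highest of them. The vitamin K-dependent factors F10, F9 and F7 had liver-content medians of 409.8, 73.6 and 35.1 CPM, and the contact factors F12, F11 and Klkb1 382, 108 and 89.4 CPM. F10 lies 1498 bases beyond F7 on chromosome 8, and F11 4657 bases from Klkb1. The cofactor F5 had a liver-content median of 278 CPM and a lung-content median of 4.41. F8, the cofactor made by endothelium, ranged from 5.74 to 24.3 CPM (median 14.3) in liver content and from 0.276 to 4.49 CPM (median 2.52) in lung content.

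The procoagulant genes of lung content were F3 and Vwf. F3 (chr3:121723537-121735048, plus strand) was the highest member per kilobase in lung content, at a median of 90.3 CPM per kb, and rank 45 of 49 in liver content. F3 had 74.7, 311, 69.6, 366, 85.8, 269 and 228 CPM in lung content. The 3 NAC libraries were above the 4 placebo libraries, and the dead null placebo library lay well above the other 3 placebo libraries. In liver content F3 had 0.578, 2.60, 1.77, 1.75, 0.435, 2.21, 2.09 and 3.83 CPM, which were 7 to 54 counts a library. Vwf, the carrier of factor VIII that tethers platelets and is made by endothelium and megakaryocytes, had 164, 143, 93.5, 61.2, 123, 97.6 and 81.0 CPM in lung content. In liver content it had 24.3, 51.3, 22.7, 22.2, 106, 67.7, 28.3 and 45.1 CPM. The dead Het placebo and dead Het NAC libraries were the highest and reached into the lung-content range, and the 3 live libraries other than live WT NAC were the 3 lowest. Vwf had the widest span of the members with a liver-content mean of at least 10 CPM, 4.76-fold. The median span over 41 such members was 1.80 and over 8665 genes with such a mean 1.95.

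**Figure D2:**
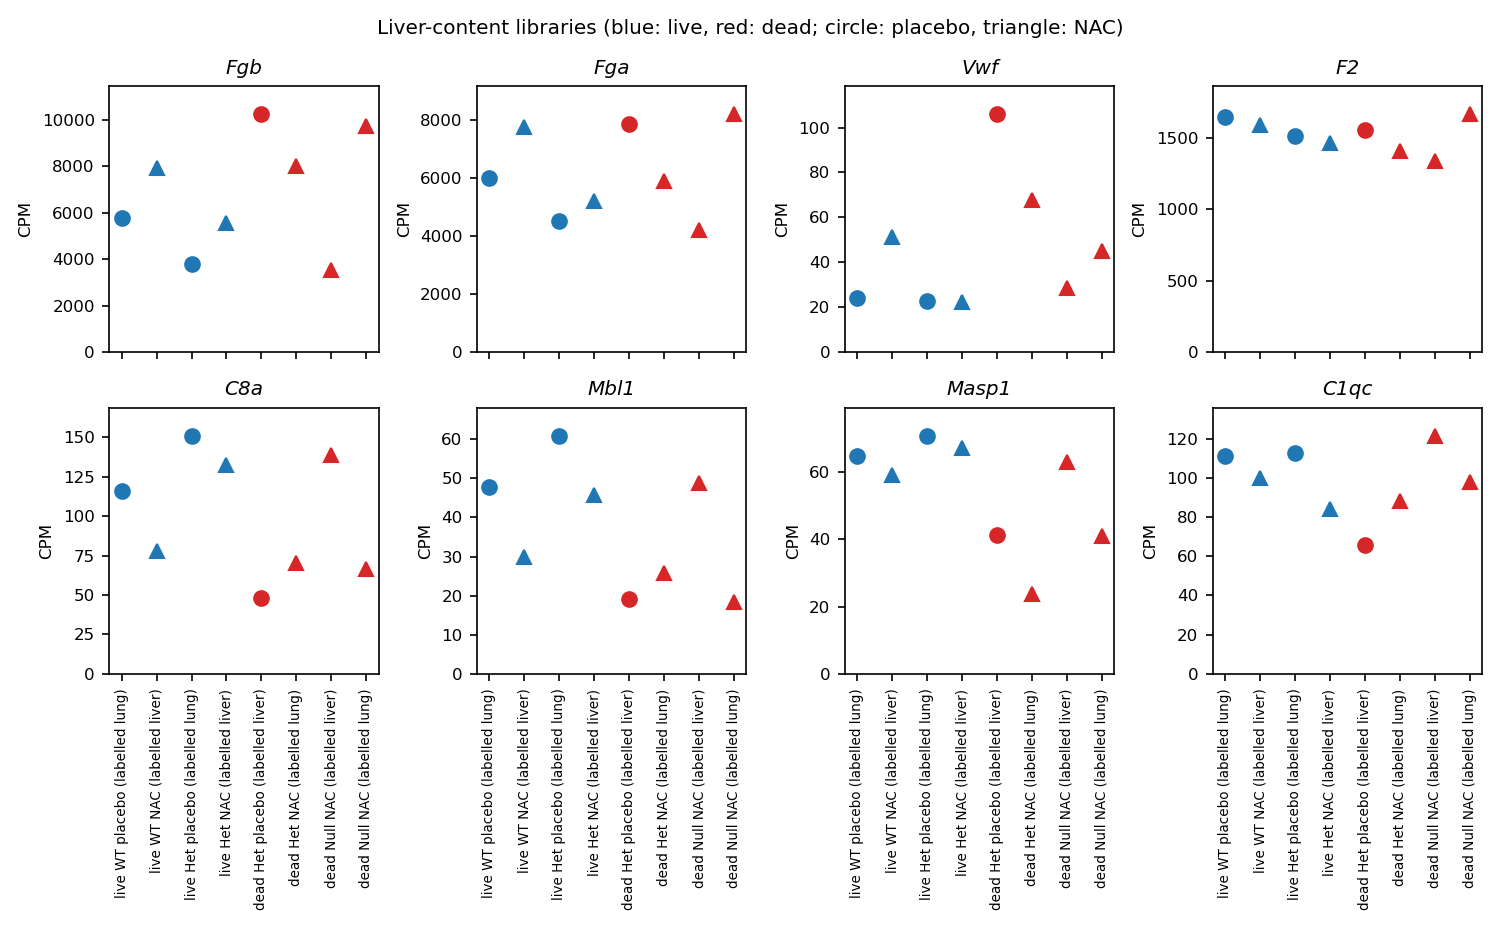
CPM of 8 genes (one panel each, each axis from 0) in the 8 liver-content libraries. Colour gives survival and the symbol treatment, as in the title, and each point is 1 pooled library. Fgb and Fga are lowest where C8a and Mbl1 are highest, in the libraries of live Het placebo and dead null NAC labelled liver, while F2 spans only 1.24-fold.

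Of the 6 anticoagulants, 3 were higher in every liver-content and 3 in every lung-content library. The plasma inhibitors Serpinc1 (antithrombin) and Serpind1 (heparin cofactor II) and the zymogen Proc (protein C) were higher in every liver-content library, at medians of 1545, 452 and 380.3 CPM. Serpind1 was the highest of the anticoagulants per kilobase of joined exons, at 206 CPM per kb, and Serpinc1 next at 181. The joined exons were 2191 bases for Serpind1 and 8546 for Serpinc1, so this order rests on the annotated lengths. Exons of Serpinc1 overlap those of Zbtb37 on the other strand. Thbd (chr2:148404466-148408188, minus strand), the thrombin receptor of endothelium, had 497, 259, 366, 167, 350.1, 306 and 248 CPM in lung content. In liver content it had 5.46, 7.73, 5.88, 7.42, 7.51, 7.53, 6.67 and 9.85 CPM. On CPM each NAC library of lung content was below the placebo library of its own pup group, and this also held for Vwf. The live Het NAC library, with the highest share of Rn45s in its class (26.2%), was also the lowest for Vwf, Pros1, Tfpi, C3, Hc and the C1q genes. The part of library composition in these CPM levels was not tested. Pros1 (protein S) had medians of 88.0 CPM in lung content and 23.3 in liver content, and Tfpi 41.5 and 17.4, without overlap. The summed level of 5 endothelial markers (Pecam1, Cdh5, Kdr, Tek and Cldn5) was from 1528 to 2569 CPM in lung content and from 113 to 185 in liver content, and its part in the levels of Thbd, Pros1, Tfpi and Vwf was not tested.

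In fibrinolysis, Plg, the precursor of plasmin, had 2938, 2878, 2382, 2674, 2670.0, 2146, 2429 and 2561 CPM in liver content. It was lowest in the dead Het NAC library and the span was 1.37-fold. In lung content it had 0.423, 2.26, 3.35, 1.66, 0.685, 0.768 and 1.29 CPM. Plg was the highest fibrinolytic gene per kilobase, at 705 CPM per kb, and its exons overlap those of Slc22a3 on the other strand. Serpinf2, the inhibitor of plasmin, and Cpb2, which protects fibrin from it, had liver-content medians of 1247 and 295 CPM and lung-content medians of 0.593 and 0.254. Of the activators, Plat (chr8:22757727-22782844, plus strand; tissue type, made by endothelium) had 37.9, 101, 20.8, 91.8, 23.2, 77.7 and 64.2 CPM in lung content. All 3 NAC libraries were above all 4 placebo libraries, of which the dead null was again the highest. In liver content Plat had 1.54, 2.95, 1.01, 0.944, 3.29, 1.17, 1.14 and 5.38 CPM. Plau (urokinase) had medians of 5.08 CPM in lung and 3.53 in liver content, and the classes overlapped.

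Complement recognition genes were all higher in liver content without overlap, but by different amounts. The 3 genes of C1q, which macrophages make, lie side by side on chromosome 4 with 3616 and 2851 bases between them. C1qa had 80.0, 80.5, 90.6, 62.4, 58.6, 71.0, 96.2 and 83.2 CPM in liver and 17.4, 11.1, 19.1, 6.08, 17.0, 29.7 and 12.3 CPM in lung content. C1qb had 107, 105, 111, 85.4, 78.4, 110.5, 119 and 100.5 CPM in liver and 21.1, 12.3, 15.9, 6.91, 20.5, 35.9 and 13.3 CPM in lung content. C1qc had 111, 99.7, 113, 84.1, 65.8, 88.0, 121 and 97.7 CPM in liver and 21.6, 12.1, 16.4, 5.11, 12.8, 29.3 and 13.4 CPM in lung content. All 3 chains were lowest in the live Het NAC library and highest in the dead Het NAC library of lung content, and lowest in the dead Het placebo and highest in the dead null NAC library labelled liver of liver content. The summed level of 9 macrophage and Kupffer cell markers was from 278 to 646 CPM in liver content and from 38 to 219 in lung content, with the lowest liver-content sum in the dead Het placebo library, and its part in the C1q levels was not tested. Mbl2, a mannose-binding lectin that binds microbial sugars, was the highest of the group per kilobase, at 102 CPM per kb in liver content. It reached at most 6 counts in a lung-content library. The liver-content ranges of Mbl2 and Mbl1 were from 67.3 to 176 CPM (median 111) and from 18.3 to 60.7 CPM (median 37.8). The proteases of the lectin pathway had medians of 61.0 CPM for Masp1 and 87.6 for Masp2, whose exons overlap those of Tardbp on the other strand.

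C3, the centre of the cascade, was both a major liver transcript and, after Hc, the complement gene with the highest lung-content median. In liver content it had 7379, 8779, 6686, 6983, 5082, 5414, 5365 and 6334 CPM. The 4 live libraries were above the 4 dead ones. In lung content C3 had 349, 249, 245, 129, 205, 358 and 212 CPM. The highest were the dead Het NAC and the live WT placebo library, and the lowest the live Het NAC library. Cfb, the protease of the alternative pathway, had liver- and lung-content medians of 956 and 7.90 CPM, and Cfi, which inactivates C3b, 521 and 0.988. Exons of Gm20547 overlap those of Cfb on the same strand, so the counting could have split its reads. Cfhr2, of the factor H family with closely related copies, had a liver-content median of 202 CPM and at most 3 counts in a lung-content library. Serping1, the C1 inhibitor, ranged from 211 to 404 CPM (median 304) in liver and from 110.1 to 232 CPM (median 168) in lung content, which overlapped on this scale and not on TMM-scaled CPM. Cfd, the adipose protease factor D, had at most 2 counts in any library, at the limit of 3 counts set here.

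The terminal pathway was split between the contents. Hc, which encodes C5, had 487, 559.7, 462, 504, 343, 375, 411 and 376 CPM in liver content. In lung content it had 797, 270.0, 461, 267, 539, 601 and 523 CPM. The classes overlapped, with the highest and the lowest value both in lung content, and per kilobase Hc was rank 2 of 49 there (83.5 CPM per kb). Gm13449 overlaps exons of Hc on the other strand. C6 had medians of 30.2 CPM in lung and 5.73 in liver content. C7 (chr15:4988762-5063740, minus strand) had 23.5, 28.4, 12.5, 17.1, 8.90, 33.1 and 28.4 CPM in lung content and at most 2 counts in a liver-content library. The pore subunits C8a and C8b, 11130 bases apart on chromosome 4, were liver genes with at most 3 and 1 counts in a lung-content library. C8a had 116, 77.6, 150.4, 132, 47.9, 70.4, 139 and 66.6 CPM in liver content. C8b had 132, 188, 108, 149, 149, 165, 88.3 and 213 CPM in the same libraries. C8a was highest in the live Het placebo and dead null NAC library labelled liver, the libraries in which C8b was lowest. C8g had a liver-content median of 32.7 CPM. C9 reached from 14 to 43 counts in liver content and was at 0 in all 7 lung-content libraries, which allows up to 3 counts a library. Vtn (vitronectin), an inhibitor of the pore, was the highest of the group per kilobase in liver content, at 825 CPM per kb.

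NAC was compared with placebo within each content class by the quasi-likelihood test of edgeR, blocked by pup group. A gene was called at a Benjamini-Hochberg adjusted p under 0.05 over all genes tested and a change of at least 2-fold. In lung content (3 NAC and 4 placebo libraries, with both arms in 3 pup groups), F3, Plat, C7, Fgb and Fgg rose with NAC and no member fell. They were 5 of 32 members tested, where 9.87% of 13990 genes were called, 4.67% higher and 5.2% lower. In the same edgeR test 5547 of the 13990 genes and 12 of the 32 members had an unadjusted p under 0.05. Low p-values were thus frequent over all genes and not particular to the members. The median log2 fold change was 0.14 over the 32 members and -0.03 over all genes.

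F3 rose by 2.32 (SE 0.21, adjusted p = 0.000579) on the log2 scale. From placebo to NAC it went from 74.7 to 311 CPM in live WT, from 69.6 to 366 in live Het and from 85.8 to 269 in dead Het pups, higher in 3 of 3 pup groups. The dead null placebo library had no NAC library of its pup group in this class. It therefore added nothing to the blocked contrast itself for any gene. Its F3 level, 228 CPM, was nearer to those of the NAC libraries than to those of the other placebo libraries. Plat rose by 2.04 (SE 0.19, adjusted p = 0.000671), from 37.9 to 101 CPM in live WT, from 20.8 to 91.8 in live Het and from 23.2 to 77.7 in dead Het pups. The initiator of clotting and the activator of plasminogen were thus those with the largest changes of the 32 members. C7 rose by 1.14 (SE 0.27, adjusted p = 0.0176), with the largest difference in dead Het pups (8.90 to 33.1 CPM). Without the dead Het libraries its log2 fold change was 0.75 (adjusted p = 0.0273), under 2-fold. C6, its partner in the pore, had a log2 fold change of 0.89 (SE 0.29, adjusted p = 0.0514) and was not called.

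**Figure D3:**
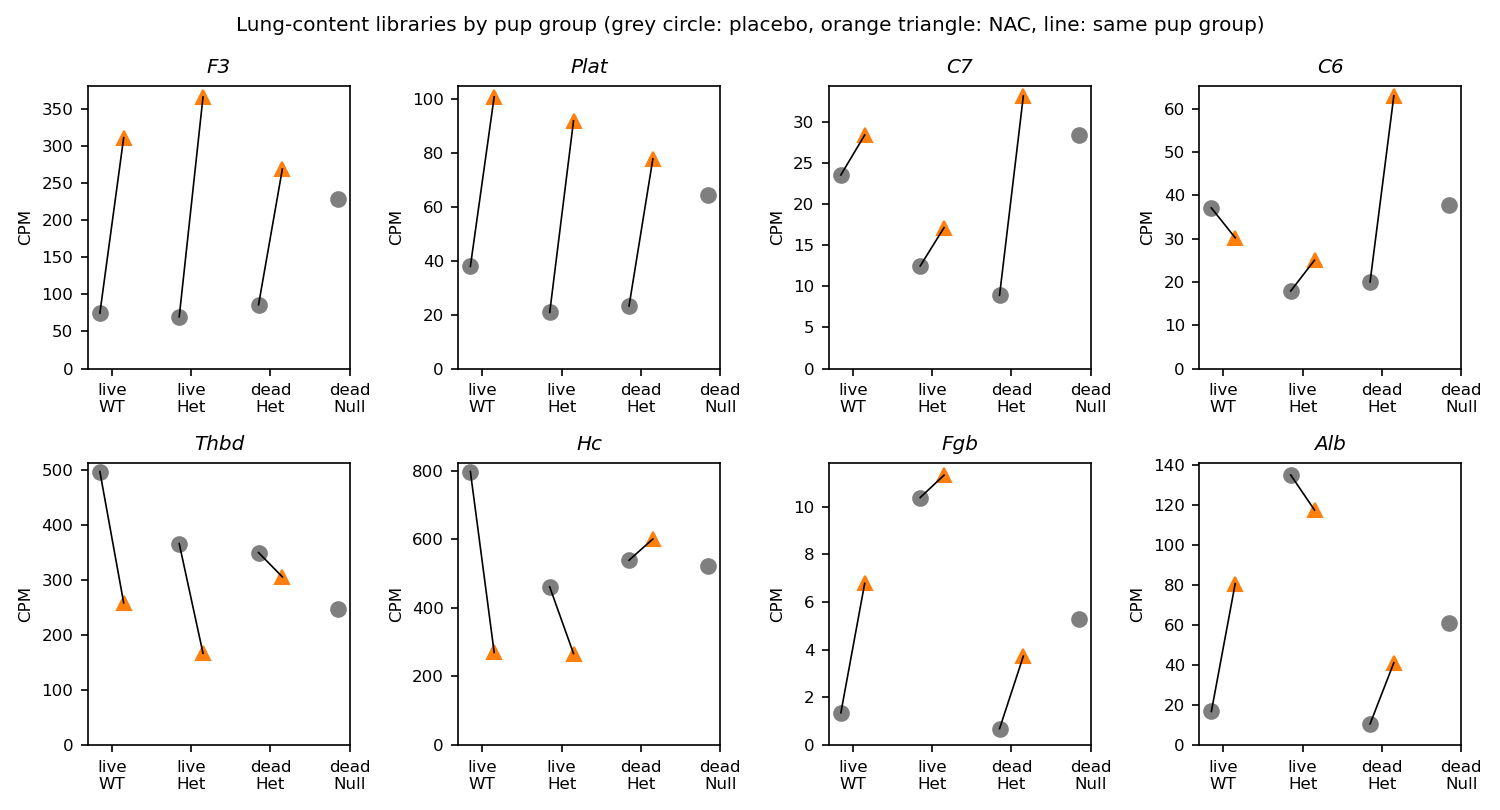
CPM of 7 of the genes and of Alb (one panel each, each axis from 0) in the 7 lung-content libraries by pup group. Each point is 1 pooled library and a line joins the placebo and NAC library of a pup group, and dead null pups have a placebo library only. F3 and Plat are higher with NAC in 3 of 3 pup groups, and Fgb and Alb are both higher with NAC in live WT and dead Het pups, while in live Het pups Fgb is slightly higher and Alb lower.

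Fgb rose by 1.70 (SE 0.45, adjusted p = 0.0272) and Fgg by 1.35 (SE 0.36, adjusted p = 0.0290), from counts that were at most 90 in a library, and Fga had a log2 fold change of 1.20 (SE 0.46, adjusted p = 0.0873). Of 8 hepatocyte markers tested, 2 were called higher, Alb by 1.59 (SE 0.40, adjusted p = 0.0222) and Cps1 by 1.92 (SE 0.52, adjusted p = 0.0293). The other 6 were not called, with Ttr at -0.62 and Apob at -0.25, and the median over the 8 was 0.70. The summed level of the 9 hepatocyte markers found was from 66.1 to 188 CPM in the NAC and from 35.3 to 261 in the placebo libraries, with none at 0 throughout. Per 100 CPM of Alb, Fgb stood at 6.52 to 9.65 CPM in lung-content libraries (median 8.42) and at 5.44 to 10.7 in liver-content libraries (median 7.63). Fgg stood at 4.70 to 10.9 CPM per 100 of Alb in lung-content libraries and at 4.63 to 6.95 in liver-content libraries. From placebo to NAC the ratio of Fgg went from 8.08 to 5.61 in live WT, from 4.70 to 7.29 in live Het and from 10.9 to 6.13 in dead Het pups. The part of hepatocyte RNA in the calls of Fgb and Fgg was not tested. Without the live WT libraries Fgb had a log2 fold change of 1.23 (adjusted p = 0.117) and Fgg of 1.01 (adjusted p = 0.156), and without the live Het libraries Fgg had 1.69 (adjusted p = 0.0638), all by the same edgeR test and no longer called. Over 13 other settings Plat was called in 13 (adjusted p at most 0.0459), F3 in 12 and C7 in 9, and Fgb and Fgg in 8 and 7 of the 12 that kept them. These tallies include the adjusted p alone, which only drops the fold limit, so that a called member cannot fail it. They also include leaving out dead null pups, which keeps the same 3 pup groups with both arms. With the mixed library added, only Plat of the 5 was called, and F3 had a log2 fold change of 2.32 (adjusted p = 0.0560 by edgeR, and at most this over all 13 settings). Only 3 of the 7 lung-content libraries also carried the label lung (live WT NAC, live Het NAC and dead Het placebo), so no pup group kept both arms without the others and the blocked test could not be fitted on them alone. With the labelled tissue as a covariate in edgeR all 5 were called, F3 at 2.17 (adjusted p = 1.69e-06) and Plat at 1.99 (adjusted p = 1.87e-05). That fit tells label from NAC only by the dead Het pair against the live pairs. It leaves fewer residual degrees of freedom than the 2 of the main fit, so its smaller p-values are no added support.

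The remaining members in lung content did not pass. Serping1 had a log2 fold change of 0.51 (SE 0.15, adjusted p = 0.0386), under 2-fold. Falls beyond 0.4 on the log2 scale that were not called included F7 at -1.28 (SE 0.42, adjusted p = 0.0529), F8 at -1.29 (SE 0.57, adjusted p = 0.130) and Thbd at -0.47 (SE 0.16, adjusted p = 0.0575). Vtn at -0.94 (SE 0.34, adjusted p = 0.0752) and Cfb at -0.86 (SE 0.29, adjusted p = 0.0551) by edgeR were others, with F5 at -0.55, F10 at -0.48 and Masp1 at -0.48. The log2 fold change was above 0 in 18 of the 32 members. C1qa, C1qb and C1qc stood at -0.15, -0.06 and -0.10, C3 at 0.08, Hc at -0.44 and Vwf at -0.09. The 17 members not tested were under a mean of 1 CPM in lung content. In the lung-content NAC libraries Rn45s took from 8.16% to 26.2% and in the placebo libraries from 4.05% to 19.7% of counts. Of the other marker lists, Pdgfra of 4 fibroblast, Ngp of 4 neutrophil and Stab2 of 4 sinusoidal endothelial markers were called higher, and 0 of 5 endothelial and 0 of 8 lung epithelial markers were called. The neutrophil sum was from 203 to 276 CPM with NAC and from 122 to 162 with placebo, the macrophage sum from 38 to 149 and from 85.0 to 219, and the part of these cells in the calls was not tested.

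Other genes of the same pathways were read from lists of 23 coagulation and fibrinolysis genes and 29 complement genes. In lung content 3 of 16 tested coagulation and fibrinolysis genes rose with NAC and 0 fell, where 4.67% of all genes were called higher and 5.2% lower. These were the thrombin receptor F2r by 1.42 (adjusted p = 0.00107), the urokinase receptor Plaur by 1.30 (adjusted p = 0.00532) and the protease receptor F2rl1 by 1.11 (adjusted p = 0.0185). Of 19 complement genes tested 0 rose and 2 fell, beside the same 4.67% and 5.2% of all genes. The 2 were Itgax, a chain of complement receptor 4, at a log2 fold change of -2.17 (adjusted p = 0.00344) and the lectin Colec10 at -1.79 (adjusted p = 0.0283). In each of the other 3 tests 0 genes of both lists were called by edgeR.

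**Figure D4:**
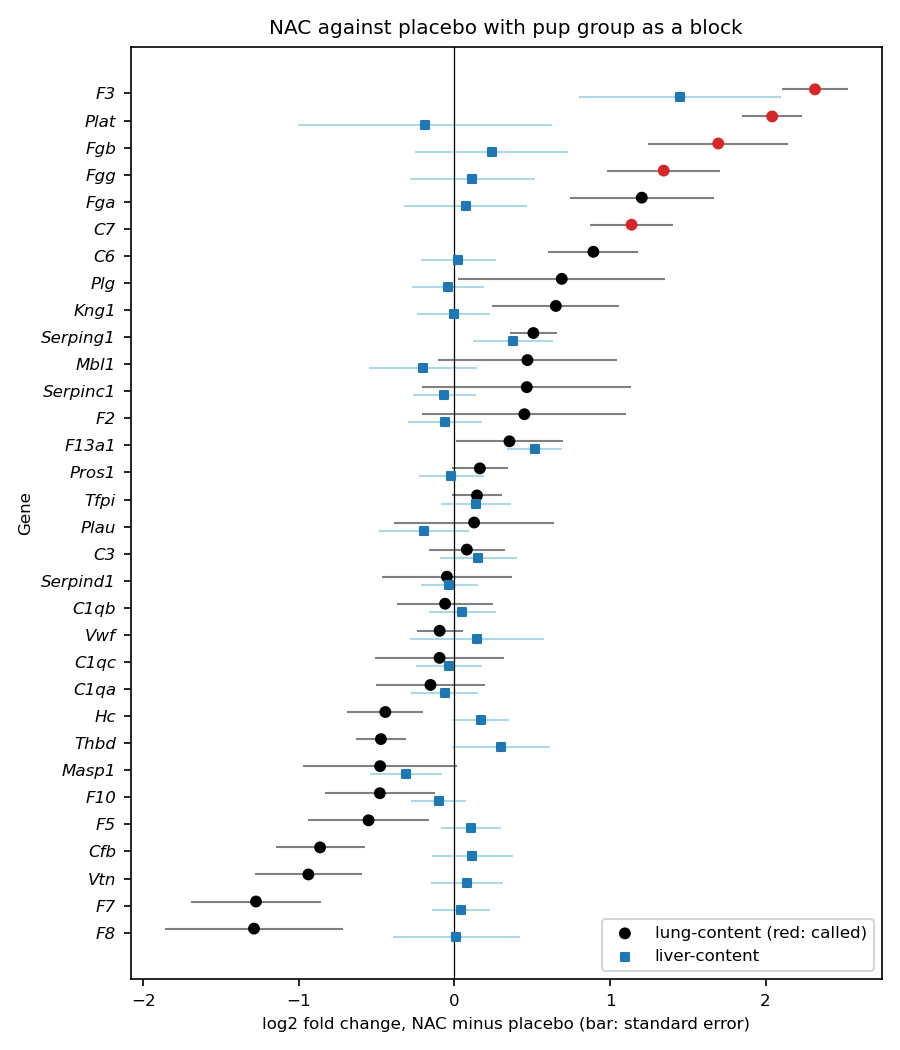
Log2 fold change of NAC over placebo (horizontal axis, with standard errors as bars) for the 32 members tested in lung content, from edgeR fits with pup group as a block. Circles are lung-content and squares liver-content libraries, and red marks the 5 called genes. F3 and Plat lie farthest right with short bars in lung content, and C7 has no square because it was under 1 CPM in liver content.

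In liver content (5 NAC and 3 placebo libraries, with both arms in 3 pup groups) no member was called for NAC. The dead null NAC libraries had no placebo library of their pup group in this class, so they added nothing to the blocked contrast itself. Of all 12993 genes 0 were called by edgeR (0%), 649 had an unadjusted p under 0.05, and DESeq2 called 29. Among the 47 members tested, 1 had an unadjusted p under 0.05, F13a1 at 0.52 (SE 0.18, adjusted p = 0.949). F3 had a log2 fold change of 1.45 (SE 0.65, adjusted p = 0.949), Fgb of 0.24 (SE 0.49, adjusted p = 0.978), C3 of 0.15 (SE 0.25, adjusted p = 0.971) and F2 of -0.06 (SE 0.24, adjusted p = 0.990). The difference of the NAC effect between lung and liver content was tested as an interaction in a fit of both classes, and 0 of 47 members were called against 12 of 14175 genes (0.0847%). For F3 the effect was 0.97 larger in lung content (SE 0.67, adjusted p = 0.476) and for Plat 2.24 larger (SE 0.85, adjusted p = 0.237), so that the effects were not shown to differ between the classes.

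Dead pups were compared with live pups within each class, with treatment as a covariate. The dead libraries of liver content included those of dead null NAC pups under both tissue labels, which share pup group and treatment. In liver content (4 against 4 libraries) 0 of 47 members and 0 of 12993 genes (0%) were called by edgeR, while 702 genes and 6 members had an unadjusted p under 0.05 and DESeq2 called 38 genes. The 6 members were F7, Klkb1, F5, Hc, Serpind1 and Masp2, all lower in dead pups, by log2 fold changes of -0.51, -0.48, -0.49, -0.43, -0.53 and -0.58 (adjusted p = 0.78 each). The log2 fold change was above 0 in 9 of 47 members, and its median was -0.21 over the members and 0.01 over all genes. By role the median was -0.52 over the 7 recognition and lectin genes, -0.26 over the 12 procoagulant genes and 0.21 over the 5 genes of fibrinogen and fibrin crosslinking. Within the recognition group C1qa stood at -0.01 and C1qc at -0.14. The 9 macrophage and Kupffer cell markers had a median of -0.70 with 0 called, and summed to between 278 and 622 CPM in dead and 528 and 646 in live pups, and their part in the recognition and lectin genes was not tested. C3 stood at -0.43 (SE 0.21, adjusted p = 0.780), and Vwf, the member with the largest difference, at 1.06 (SE 0.47, adjusted p = 0.780). The 5 endothelial markers summed to between 113 and 185 CPM in dead and 148 and 178 in live pups, and 6 megakaryocyte and platelet markers to between 181 and 294 and between 173 and 249. In lung content (3 against 4 libraries) 0 of 32 members and 0 of 13990 genes (0%) were called, 507 genes and 5 members had an unadjusted p under 0.05, and DESeq2 called 10 genes. Those members were F13a1 at 0.83, Serping1 at 0.47, C1qb at 0.78, Serpind1 at 0.78 and Serpinc1 at -2.21 (adjusted p = 0.9996 each). The 8 hepatocyte markers tested there had a median of -1.11 with 0 called, and the 9 found summed to between 50.4 and 108 CPM in dead and 35.3 and 261 in live pups. The 4 erythroid markers had a median of 0.83 with 0 called, and the part of either list in these values was not tested.

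The labelled comparison of NAC with placebo, within each pup group and tissue label, set a liver-content against a lung-content or mixed library in 8 of 8 pairs, so that NAC and content cannot be told apart in it. Each arm was 1 library, and a change was counted at 2-fold or more with no test. In live WT pups labelled lung, 7 members were higher and 38 lower with NAC (27.5% and 28.5% of genes), and in those labelled liver 38 were higher and 6 lower (24.4% and 25.6% of genes). In live Het pups labelled lung the counts were 7 and 39 (28.4% and 31.9% of genes) and labelled liver 37 and 6 (25.1% and 25.3%). In dead Het pups the order was the opposite, with 37 higher and 5 lower labelled lung (25.3% and 25.9% of genes) and 7 and 36 labelled liver (26.1% and 25.8%). In dead null pups, 37 were higher and 5 lower labelled lung (22.1% and 24.9% of genes) and 35 and 7 labelled liver (29.1% and 26.7%). Fgb had log2 fold changes of -10.38, -8.67, 14.19 and 3.92 in the pairs labelled lung, in turn those of WT pups, live Het pups, dead Het pups and null pups. F3 had 8.40, 7.40, -4.57 and -2.76 in the same pairs. The sign of each followed which of the libraries had liver content in all 4 pairs.

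The mixed library, labelled dead null placebo lung, held the liver genes of the list at an intermediate level. The 36 members higher in every liver-content library on TMM-scaled CPM stood there at a median of 15.6% of their liver-content median, from 4.82% to 49.2%. The highest share was that of Serping1, the member that overlapped without the factors, and the next was F7 at 38.5%. Alb stood at 10.4% of its liver-content median and Sftpc at 60.6% of its lung-content median. Fgb had 1039 CPM, C3 656, F3 41.7, Thbd 298 and C7 9.07.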

How the data were processed

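Per the labels and the methods, polyadenylated RNA was sequenced from TruSeq stranded libraries as paired reads (150 bp in the labels, 100 bp in the methods), and the authors aligned them to mouse build GRCm38 with the Omicsoft Sequence Aligner. The submitters' notes list R 4.0.3 and edgeR 3.30.3. The deposited table gives an estimated count for each symbol without normalization, of which 6.50% to 8.24% per library were not whole, and they were rounded. Per the methods, the index held cDNA and ncRNA sequences of Ensembl, and abundances from uniquely mapped reads were kept. The annotation release, the use of strand and the treatment of overlapping genes are not given in the sources used here. The table held 0 columns of other samples.

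The design was written for counts. Content classes used raw CPM: lung content at Sftpc of at least 1000 and Alb under 1000 CPM, liver content at Alb of at least 50000. The members and gene lists were chosen with earlier results of these data known. Tests used edgeR 4.0.16 in R 4.3.3 (TMM factors, quasi-likelihood, a mean of at least 1 CPM in the class, Benjamini-Hochberg adjustment over all genes), and DESeq2 1.42.0 as an alternative. The scripts were tested on simulated data. A listed gene that is no member is not reported here. Positions and exon lengths, which join the exons of all annotated transcripts of a gene, came from GENCODE on GRCm38, and promoters from RefSeq. Values in every library are given for Fga, Fgb, Fgg, F2, Plg, C3, Hc, F3, Thbd, Vwf, the C1q genes and up to 8 called members per test. Members with a higher median in lung content are named with both medians or with their values. The highest member per kilobase in liver content is named for each role except that of C3. Values in every library for C8a and C8b, and other named members, were chosen after seeing the data. Other alternatives were scalings, filters, the adjusted p alone, the mixed library, labelled tissue as a covariate, no block, and leaving out pup groups or libraries, with an assumed coefficient of variation of 0.2 and a prior count of 2 for the labelled pairs. Python 3.11.15, pandas 2.3.3 and numpy 2.4.6 did the rest. Limits given for low counts cover counting error only.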

Additional observations from a re-analysis of the deposited data

Results flagged for a closer look

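Within groups of 4 to 10 libraries, 3 values of 72 groups over 15 members stood far from the others. Chance gives about 1 in 20 groups, so the count is no more than that rate gives. The groups by treatment and by survival also share libraries. Vwf had 51.3 CPM in the liver-content library labelled live WT NAC liver, while the other 3 live liver-content libraries had 24.3, 22.7 and 22.2. F3 had 228 CPM in the lung-content library labelled dead null placebo liver, against 74.7, 69.6 and 85.8 in the other 3 placebo libraries. Over all genes this library was most like the live WT NAC library among those of lung content (Pearson r = 0.20 across 13991 genes). F2 had 3.69 CPM in the lung-content library labelled live Het placebo liver, which also had the highest Alb of its class at 135.0 CPM, against 0.593, 0.457 and 0.775 in the other 3 placebo libraries. The mixed library is outside the tests within a class, and the 49 members summed to 0.760% of its counts, above the highest lung-content library at 0.245%. Causes of these values were not tested.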

How the results depend on the processing

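The count of members called for NAC in lung content, 5 as reported, was 3 with genes of a mean of at least 10 CPM, where fewer genes were tested, 1 with the mixed library added, 2 without the block of pup group, and from 4 to 7 with each pup group left out in turn. The mixed library is of dead null placebo pups, which have no NAC library in lung content. It therefore adds nothing to the blocked NAC contrast itself. Beyond this, the cause of the 2 lower counts was not tested. The count for dead against live pups in liver content went from 0 to 3 (Vwf at 1.87, C8a at -1.09 and Mbl1 at -1.17) without the live WT NAC and dead null NAC libraries labelled liver. All genes called then were 431 (3.33%). This alternative was added after seeing the data, and the libraries were left out for their unlike profiles, so the larger count follows in part from that choice and supports nothing. No direction reversed in any setting. Of the other results, 110 values of counts stayed within 1.5 times, 49 values of single members kept their call and 14 lost it. Those that kept it include the adjusted p alone, which a called member cannot fail. Counts with no overlap were from 36 to 38 and 7 to 7 with each pup group left out. No paired analysis was possible because the labels carry no replicate numbers, beyond the block of pup group that the NAC tests already used. Leaving out a pup group in the NAC tests leaves as few as 2 groups with both arms. Counts of at most 90 for fibrinogen in lung content, and at most 54 for F3 in liver content, limit the precision there.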
